A study of Homo sapiens with 47 samples.

Results

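SNAI1, SNAI2, TWIST1, TWIST2, ZEB1 and ZEB2 encode transcription factors known for driving the change from epithelial to mesenchymal cells. These 6 genes were chosen by name, out of 58051 genes listed in the count tables. The samples were bulk RNA-seq libraries of WA09 (H9) cells, an established human embryonic stem cell line, before (t0) and during a differentiation towards axial progenitors. After t0, when they grew in mTESR1, cells were moved for 36 h into N2B27 medium without vitamin A, which held the WNT agonist CHIR-99021, rhFGF2, the retinoic acid receptor inverse agonist AGN193109 and the ROCK inhibitor Y-27632. They were then re-plated in the same medium with the same agents and split every 3 to 4 days from passage 1 (P1) to passage 10 (P10). At P5 and P8 an epithelial (EPI) and a mesenchymal (MES) fraction were also collected, which were separated by how readily they came off the dish in TrypLE. There were 47 libraries, 35 of whole cultures at 12 time points and 12 of the 4 fractions, with 3 differentiations in each group and 2 at P9. All groups come from a single cell line, so p-values measure the spread between differentiations of that line and nothing wider.

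SNAI and ZEB proteins are zinc finger repressors that bind E-box sequences in the regulatory regions of epithelial genes such as the adhesion gene CDH1. TWIST proteins are basic helix-loop-helix factors that bind E-boxes together with E proteins. In the embryo these families are known for their part in gastrulation, in the departure of neural crest cells from the neural tube and in the formation of mesenchyme.

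Totals per library ran from 13029491 to 64082859 expected counts, with a median of 47292229. Levels are given as TPM, a unit scaled for gene length and library size, so that genes of different length can be compared. Changes are log2 fold changes with their SE from edgeR's quasi-likelihood test on rounded counts with the differentiation as a block. To pass, a gene needed a Benjamini-Hochberg adjusted p (false discovery rate, FDR) under 1%, levels that differed 2-fold or more, and normalized counts averaging 100 or more in the libraries compared. All 6 genes went through the filter on low counts, in both the whole cultures and the fractions. Some libraries stood apart from their groups. At P10, differentiation 1 had 481.5 TPM summed over 8 pre-neural markers, where differentiations 2 and 3 had 17.1 and 27.7, and both P8 fractions of differentiation 3 were the highest of their group for each of the 6 genes.

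By 36 h ZEB2 and ZEB1 had risen from their t0 level in each differentiation. ZEB2 was at 1.48, 1.58 and 2.24 TPM in the t0 libraries of differentiations 1, 2 and 3 and at 33.5, 23.0 and 43.0 TPM at 36 h. ZEB1 was at 2.18, 1.32 and 3.73 TPM at t0 and at 12.2, 8.37 and 13.4 TPM at 36 h. For neither gene did the groups overlap. The log2 fold change was 4.28 ± 0.38 (SE) for ZEB2 (edgeR adjusted p = 5.3e-08) and 2.26 ± 0.31 for ZEB1 (edgeR adjusted p = 2.97e-05). Over 17 alternative settings the adjusted p for ZEB1 ran from 1.55e-12 to 0.0125, the last of these without differentiation 3, and its call was also lost with the compared libraries alone in the fit (edgeR adjusted p = 0.0103). In bulk samples, fewer cells of a type and less RNA per cell cannot be told apart, for these genes and those below.

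The SNAI genes were uneven between differentiations at 36 h. SNAI1 was at 7.42, 8.10 and 6.64 TPM at t0 and at 7.96, 27.7 and 125.6 TPM at 36 h. SNAI2 was at 0.69, 1.20 and 0.86 TPM at t0 and at 2.33, 11.5 and 64.4 TPM at 36 h. Differentiation 3 was the highest for both, and the SNAI1 level of differentiation 1 at 36 h lay within the range at t0. SNAI2 passed with a log2 fold change of 4.38 ± 0.87 (edgeR adjusted p = 0.00151), while SNAI1 did not (2.35 ± 0.92, edgeR adjusted p = 0.0978). Without differentiation 3, SNAI2 at 36 h no longer passed (2.67, edgeR adjusted p = 0.167), nor without differentiation 2 (4.83, edgeR adjusted p = 0.0552) or with the compared libraries alone (3.74, edgeR adjusted p = 0.0668), and over 17 alternatives the adjusted p ran from 2.24e-07 to 0.167.

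The TWIST genes were low at this time. TWIST1 was at 0.23, 0.07 and 0.22 TPM at t0 and at 0.41, 0.21 and 0.60 TPM at 36 h, which rested on 26 counts or fewer per library. TWIST2 was at 2.75, 3.08 and 3.43 TPM at t0 and at 2.44, 2.57 and 3.05 TPM at 36 h. Neither passed, and for both genes the ranges overlapped. Thus 3 of the 6 genes passed at 36 h, all higher, beside 2.71% of all 21750 genes tested.

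SNAI1 reached its early maximum at a different time in each differentiation. Among t0, 36 h and P1 to P3, SNAI1 was highest at P2 in differentiation 1 (54.3 TPM), at P1 in differentiation 2 (76.1 TPM) and at 36 h in differentiation 3 (125.6 TPM). SNAI2 was highest at the same time points over this span in differentiations 1, 2 and 3, at 93.7, 64.1 and 64.4 TPM. Markers of another cell type moved over the same span. The 10 markers of primitive streak and paraxial mesoderm had their highest sum at P2 in differentiation 1 (808.3 TPM). In differentiations 2 and 3 it was at 36 h (1984 and 2006 TPM). MSGN1, picked from these 10, was highest when SNAI1 was, at 163.2, 165.8 and 404.1 TPM in differentiations 1, 2 and 3. In differentiation 2 the sum of the 10 did not share this time. It was 546.2 TPM at P1, where SNAI1 was highest, below its value at 36 h. The order of the differentiations and MSGN1 were seen after the values were examined, and neither the order nor the part of these markers was tested. Group means at these times therefore join libraries far apart, as at P1, where SNAI1 was 35.7 ± 36.5 TPM (SD, n = 3).

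**Figure D1:**
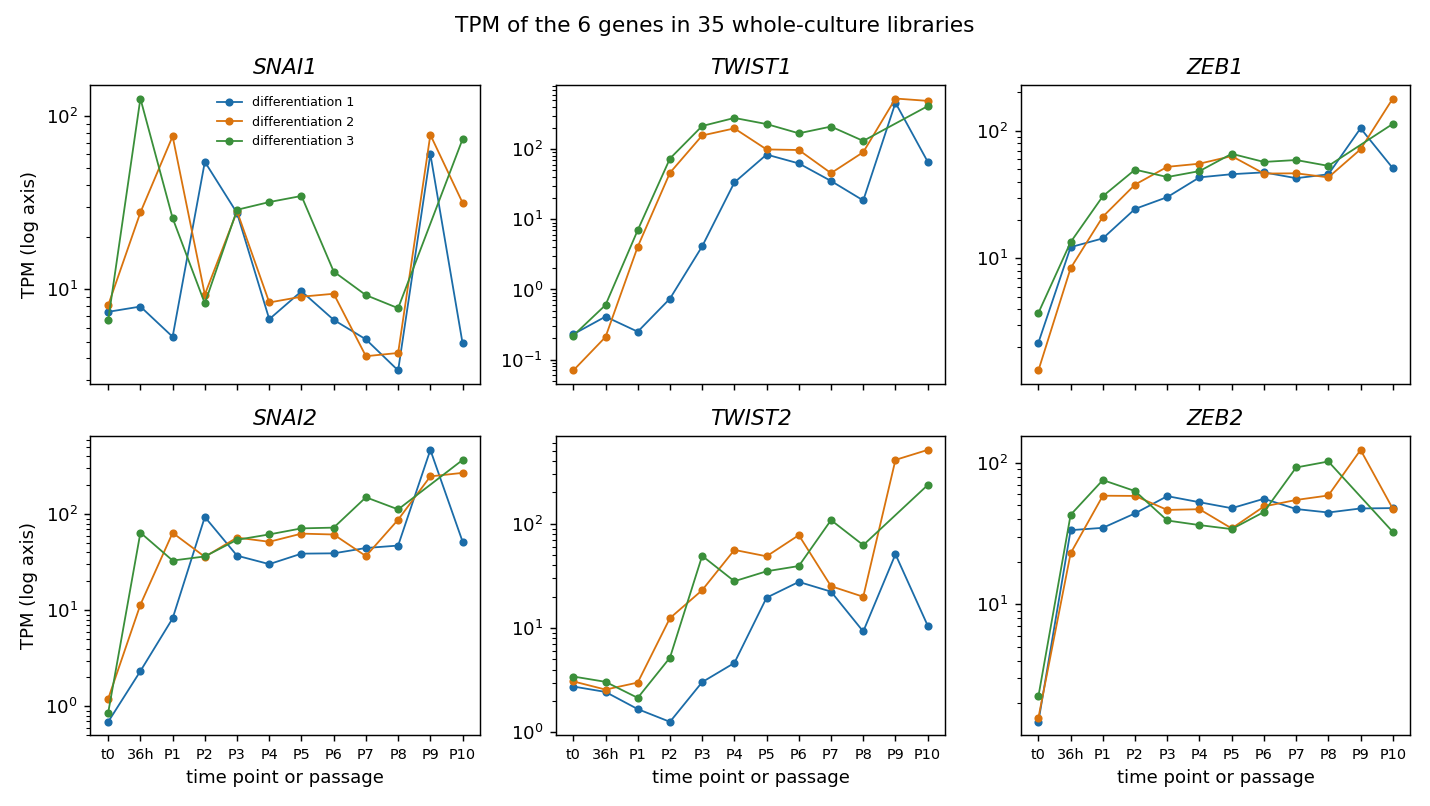
TPM (log axis) of each gene in the 35 whole-culture libraries from t0 to P10, 1 line for each differentiation; differentiation 3 has no P9 point. From t0 to P3, SNAI1 is highest at 36 h in differentiation 3 (125.6 TPM), P1 in differentiation 2 (76.1) and P2 in differentiation 1 (54.3). Over all times it is highest at P9 in differentiations 1 (60.1 TPM) and 2 (77.7). TWIST1 is below 1 TPM in every library at t0 and 36 h.

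TWIST1 first passed against t0 at P2 (7.14 ± 1.15, edgeR adjusted p = 3.11e-05). At P1 it was at 0.25, 4.07 and 7.01 TPM, at P2 at 0.74, 46.1 and 73.6 TPM and at P3 at 4.12, 156.9 and 214.2 TPM. Differentiation 1 was the lowest at each of these times, and it reached 33.6 TPM at P4. The P1 libraries averaged 75.9 normalized counts together with t0, under the minimum of 100, so TWIST1 did not pass there with an edgeR adjusted p of 0.00864. Against t0 at P2 the call was lost without differentiation 2 (6.21, edgeR adjusted p = 0.0123) or 3 (6.26, edgeR adjusted p = 0.0187) and with the compared libraries alone (6.875, edgeR adjusted p = 0.0305), in a range from 3.92e-12 to 0.0305 over 16 alternatives. The change from P1 to P3 passed (4.72 ± 0.90, edgeR adjusted p = 0.00309), 1 of 6 genes beside 1.09% of all genes tested. It no longer passed without differentiation 2 (edgeR adjusted p = 0.19), without differentiation 3 (edgeR adjusted p = 0.176), without the block (edgeR adjusted p = 0.0343), with the compared libraries alone (edgeR adjusted p = 0.105) or without the 4 smallest libraries (edgeR adjusted p = 0.0178), in a range from 2.38e-06 to 0.19 over 16 alternatives, while under the settings that lost it the log2 fold change was 4.33 to 4.85.

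TWIST2 followed with lower levels and a wide spread. It was at 3.03, 23.1 and 49.3 TPM at P3 and at 19.6, 48.8 and 35.1 TPM at P5. Differentiation 1 was the lowest at both times. Against t0, TWIST2 did not pass at P3 (2.34 ± 0.82, edgeR adjusted p = 0.0227) and did at P5 (3.17 ± 0.83, edgeR adjusted p = 0.00304). That call was lost without differentiation 2 (edgeR adjusted p = 0.0402) or 3 (edgeR adjusted p = 0.044) and without the block (edgeR adjusted p = 0.0188), in a range from 0.000259 to 0.044 over 17 alternatives. At P6, P7 and P8 it was also lost without differentiation 2 (edgeR adjusted p = 0.0278, 0.0146 and 0.0495) or 3 (edgeR adjusted p = 0.0231, 0.0512 and 0.167). The P8 call was lost as well without the block (edgeR adjusted p = 0.0228), with all 47 libraries in 1 fit (edgeR adjusted p = 0.0108) and without the 4 smallest libraries (edgeR adjusted p = 0.0105), and the P10 call with the compared libraries alone (edgeR adjusted p = 0.0457).

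Over the 11 comparisons with t0, which share the t0 libraries, ZEB1, ZEB2 and SNAI2 passed at all 11 time points, TWIST1 at 9, TWIST2 at 6 and SNAI1 at 1, all higher than t0. The counts of genes passing were 3 of 6 at P1, where 8.79% of all genes tested passed, and 4 of 6 at P2 (12.8%), P3 (13.6%) and P4 (14%). They were 5 of 6 at P5 (14.3%), P6 (14.6%), P7 (15.2%) and P8 (15.4%), 6 of 6 at P9 (19.7%) and 5 of 6 at P10 (18.3%). SNAI1 was the gene that did not pass at P10 (1.83 ± 0.90, edgeR adjusted p = 0.0877), and its P9 call (3.37 ± 0.98, edgeR adjusted p = 0.00588) was lost without differentiation 2 (edgeR adjusted p = 0.066) or 3 (edgeR adjusted p = 0.0301) and without the block (edgeR adjusted p = 0.0157), in a range from 0.00142 to 0.066 over 17 alternatives. SNAI2 at P1 was lost without differentiation 2 (edgeR adjusted p = 0.0259), in a range from 1.36e-10 to 0.0259 over 17 alternatives. With the compared libraries alone in the fit, SNAI2 (4.92, edgeR adjusted p = 0.02), ZEB1 (3.33, edgeR adjusted p = 0.0159) and ZEB2 (5.07, edgeR adjusted p = 0.0126) did not pass at P1, at log2 fold changes close to those of 5.13, 3.22 and 5.06 with all whole-culture libraries.

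**Figure D2:**
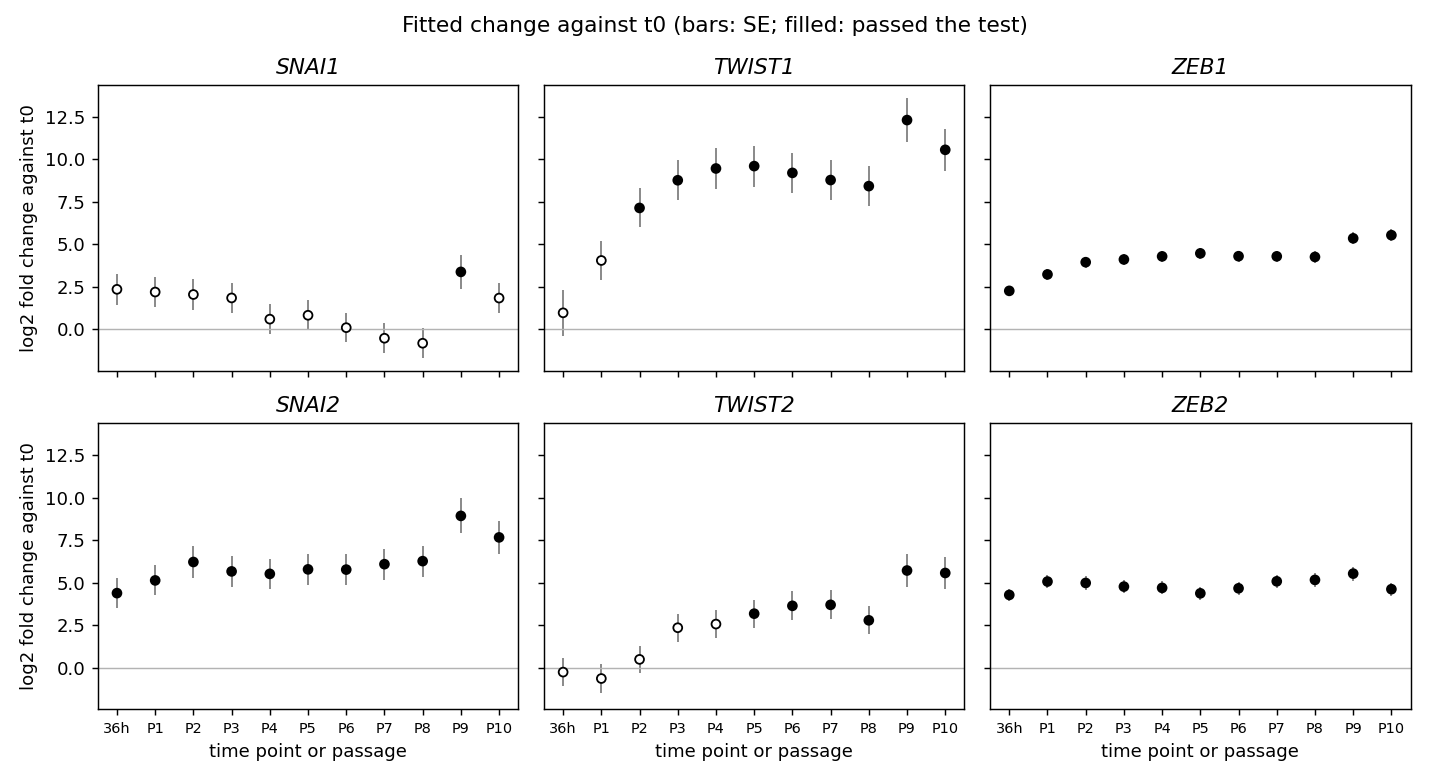
Fitted log2 fold change of each gene against t0 at 36 h and P1 to P10, with bars for the SE and filled points where the gene passed. SNAI1 passed at 1 of 11 time points and ZEB1, ZEB2 and SNAI2 at 11.

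By edgeR none of the 6 genes passed from 36 h to P1 (1.19% of all genes tested passed), from P3 to P5 (0.0138%) or from P5 to P8 (0.0092%). By an unadjusted p under 0.05, 5083, 1545 and 2892 of 21750 genes differed in these steps. SNAI1 was at 27.5, 28.1 and 28.7 TPM at P3 and at 3.41, 4.30 and 7.79 TPM at P8. These ranges did not overlap, and the P8 range overlapped that of t0.

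At P9, measured in differentiations 1 and 2, SNAI1 and TWIST1 were higher than at any other of the 12 times in both of these differentiations. TWIST1 was at 18.6, 90.8 and 131.3 TPM at P8 and at 459.8 and 528.1 TPM at P9. SNAI2 was at 47.2, 87.8 and 112.4 TPM at P8 and at 468.0 and 248.1 TPM at P9, and SNAI1 was at 60.1 and 77.7 TPM at P9. For TWIST1, SNAI1, SNAI2 and ZEB1 the P9 libraries lay above those of P8, and for TWIST2 and ZEB2 the ranges overlapped. The share of all genes whose ranges lay apart was not counted. By edgeR 5710 of 21750 genes had an unadjusted p under 0.05 in this step. TWIST2 was at 9.28 and 19.98 TPM at P8 in differentiations 1 and 2 and at 51.1 and 411.0 TPM at P9, higher in each, and at 62.5 TPM at P8 in differentiation 3, and it did not pass (2.93 ± 0.86, edgeR adjusted p = 0.0324). ZEB2 was at 47.6 and 123.5 TPM at P9. Marker sums differed in the same step, and their part in it was not tested: 8 pre-neural markers summed to 864.1, 293.1 and 233.0 TPM at P8 and 42.9 and 41.5 at P9 (median log2 fold change -3.20), and 12 neural crest markers to 447.0, 708.9 and 1160 TPM at P8 and 1681 and 1507 at P9 (median -0.03). The 12 lateral plate and limb markers summed to 232.2, 232.4 and 310.1 TPM at P8 and to 427.1 and 498.5 at P9 (median 2.47). Nearly all of this sum at P9 was PRRX1, at 441.8 ± 69.2 TPM (SD, n = 2). Of the 12, FOXF1 passed (8.94 ± 1.98, edgeR adjusted p = 0.00829), beside 1.22% of all genes tested. At P9 FOXF1 was at 9.92 TPM in differentiation 1 and at 0.37 TPM in differentiation 2. Of the neural crest markers MSX2 (4.90 ± 0.84, edgeR adjusted p = 0.00225) and TFAP2A (4.76 ± 1.09, edgeR adjusted p = 0.00979) passed. TWIST1 passed (3.89 ± 0.89, edgeR adjusted p = 0.00978), 1 of 6 genes beside 1.22% of all genes tested, and SNAI1 did not (4.20 ± 1.01, edgeR adjusted p = 0.0127). The TWIST1 call was lost without differentiation 2 (edgeR adjusted p = 0.0801) or 3 (edgeR adjusted p = 0.113), without the block (edgeR adjusted p = 0.212), without a filter on low counts (edgeR adjusted p = 0.0123), with the compared libraries alone (edgeR adjusted p = 0.121), with limma (adjusted p = 0.0381) and without the 4 smallest libraries (edgeR adjusted p = 0.0131), in a range from 0.00226 to 0.212 over 16 alternatives. Under the settings that lost it the log2 fold change ran from 2.69 without the block to 4.74 without differentiation 2. The block bears on this step, since differentiation 3 has no P9 library.

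At P10 the differentiations parted. TWIST2 was at 10.6, 512.4 and 235.7 TPM, SNAI2 at 52.0, 269.9 and 367.6 TPM and ZEB1 at 51.0, 179.3 and 113.4 TPM. Differentiation 1 was the lowest for each, and ZEB2, at 47.9, 47.5 and 32.5 TPM, did not share this order. By edgeR none of the 6 genes passed between P8 and P10, beside 0.0874% of all genes tested, and 3571 genes had an unadjusted p under 0.05. Without the P10 library of differentiation 1, left out after its values were seen, the count over the 6 later steps was 5 of 36 in place of 2, which compares with 8 by DESeq2 and 1 by limma on all libraries. Counts over all genes under these settings are not given here, so a rise may not be particular to the 6 genes.

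Ordered by their mean over the 12 whole-culture groups, TWIST1 ran from 0.17 ± 0.09 TPM at t0 to 493.9 ± 48.3 TPM at P9 (SD, n = 3 and 2), and ZEB1 from 2.41 ± 1.22 TPM at t0 to 114.6 ± 64.2 TPM at P10 (SD, n = 3 each). For ZEB2, t0 was the lowest group, at 1.77 ± 0.41 TPM, and the others lay between 33.1 ± 10.0 TPM at 36 h and 85.6 ± 53.7 TPM at P9 (SD, n = 3 and 2), a top place that rested on the library of differentiation 2. For ZEB2 the libraries of t0 and 36 h, the lowest groups in the order, did not overlap, and each neighbouring pair above them did. SNAI1 had no pair of neighbouring groups without overlap.

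The balance within each pair of related genes shifted. SNAI1 made up 89.0% ± 2.2 of the SNAI1 and SNAI2 TPM at t0, 71.4% ± 5.7 at 36 h and 5.96% ± 1.13 at P8 (SD, n = 3 each). TWIST1 made up 5.32% ± 2.82 of its pair at t0 and 85.5% ± 6.8 at P4. ZEB1 made up 55.8% ± 9.1 of its pair at t0, 25.8% ± 1.7 at 36 h and 59.9% ± 9.6 at P5. These shares are descriptions and were not tested.

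**Figure D3:**
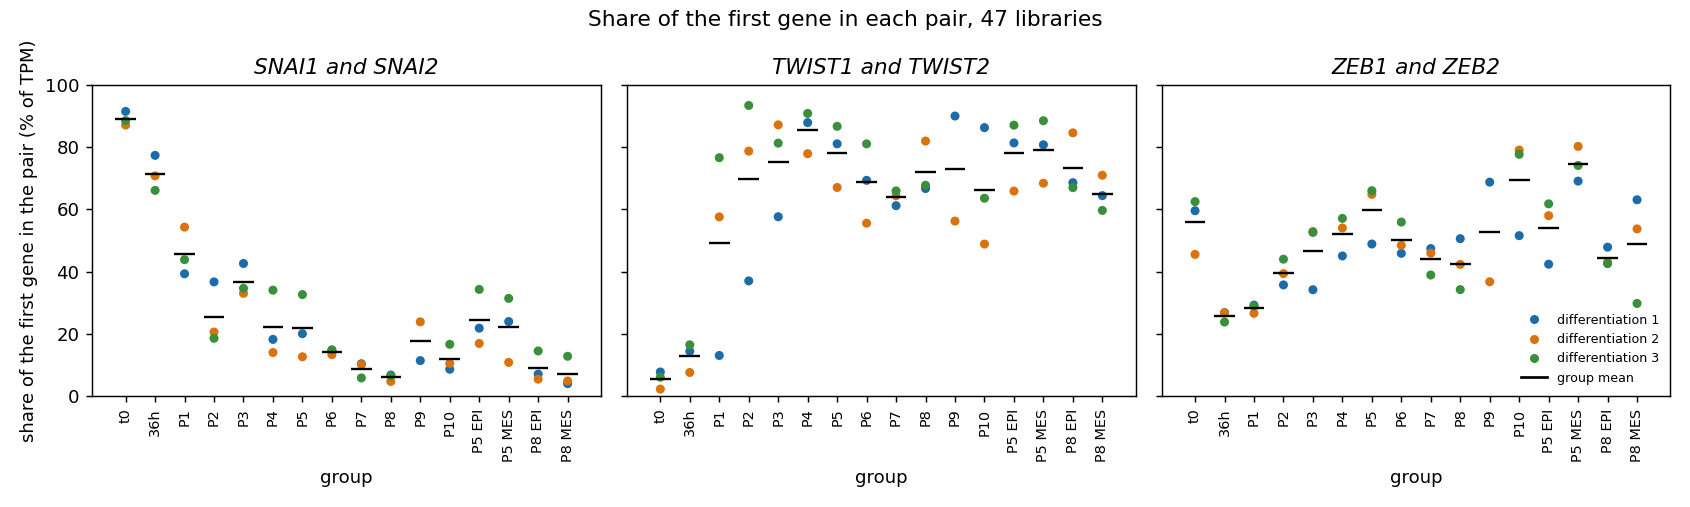
Share of the first named gene in the TPM of its pair (%) in each of the 47 libraries, with points for libraries and lines for group means. SNAI1 falls from a mean of 89.0% at t0 to 5.96% at P8, and TWIST1 goes from 5.32% at t0 to 85.5% at P4.

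In the fractions, 5 of the 6 genes were higher in MES than in EPI within each differentiation at P5. TWIST1 was at 30.0, 62.6 and 135.6 TPM in P5 EPI and at 300.7, 200.3 and 275.9 TPM in P5 MES. SNAI2 was at 23.5, 38.0 and 47.4 TPM in P5 EPI and at 79.6, 124.8 and 113.0 TPM in P5 MES. ZEB1 was at 36.7, 55.1 and 58.9 TPM in P5 EPI and at 74.6, 97.3 and 90.4 TPM in P5 MES. For TWIST1, TWIST2, SNAI2 and ZEB1 the fractions did not overlap, and for SNAI1 they did. ZEB2 was lower in MES in each differentiation, at 49.9, 40.0 and 36.5 TPM in EPI and 33.4, 23.96 and 31.6 TPM in MES, and its fractions did not overlap either. The share of all genes with such separation, or with the same direction in each differentiation, was not counted. These values describe the 6 genes alone.

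None of these differences passed. The log2 fold change of P5 MES against P5 EPI was 1.63 ± 0.28 for SNAI2 (edgeR adjusted p = 0.0196), 0.91 ± 0.14 for ZEB1 (edgeR adjusted p = 0.0166), 2.37 ± 0.73 for TWIST1 (edgeR adjusted p = 0.0839) and -0.48 ± 0.39 for ZEB2 (edgeR adjusted p = 0.488). The background was 0% of 18885 genes, so edgeR passed no gene at all here, and 4894 had an unadjusted p under 0.05. DESeq2 with the same block passed 677 genes, 2 of the 6 among them (SNAI1 and SNAI2), and limma on TPM passed 0. For SNAI1 edgeR gave 1.43 ± 0.37 (adjusted p = 0.05, from 0.00165 to 0.55 over 17 alternatives), and for SNAI2 the adjusted p ran from 1.05e-06 to 0.227.

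At P8 the same 5 genes were again higher in MES in each differentiation. TWIST1 was at 9.93, 77.4 and 256.5 TPM in P8 EPI and at 75.6, 169.8 and 375.9 TPM in P8 MES. ZEB2 was at 45.4, 62.9 and 80.2 TPM in P8 EPI and at 35.3, 54.0 and 162.8 TPM in P8 MES, higher in MES in differentiation 3 alone. ZEB1 was the one gene whose fractions did not overlap. Shares over all genes were not counted at P8 either. None of the 6 genes passed, and edgeR passed 0% of all 18885 genes tested, with 2261 at an unadjusted p under 0.05, while DESeq2 passed 54 and limma 0.

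The test of whether the difference between fractions changed from P5 to P8 passed for none of the 6 genes, beside 0% of all genes tested by edgeR, with 1152 at an unadjusted p under 0.05, 1 by DESeq2 and 0 by limma. Its log2 values ran from -1.22 ± 0.97 for TWIST1 to 0.73 ± 0.55 for ZEB2. Within EPI, none of the 6 passed between P5 and P8 (0.259% of all genes tested), and within MES none did (0.699%). SNAI1 in MES came to -1.49 ± 0.37 (edgeR adjusted p = 0.0395).

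**Figure D4:**
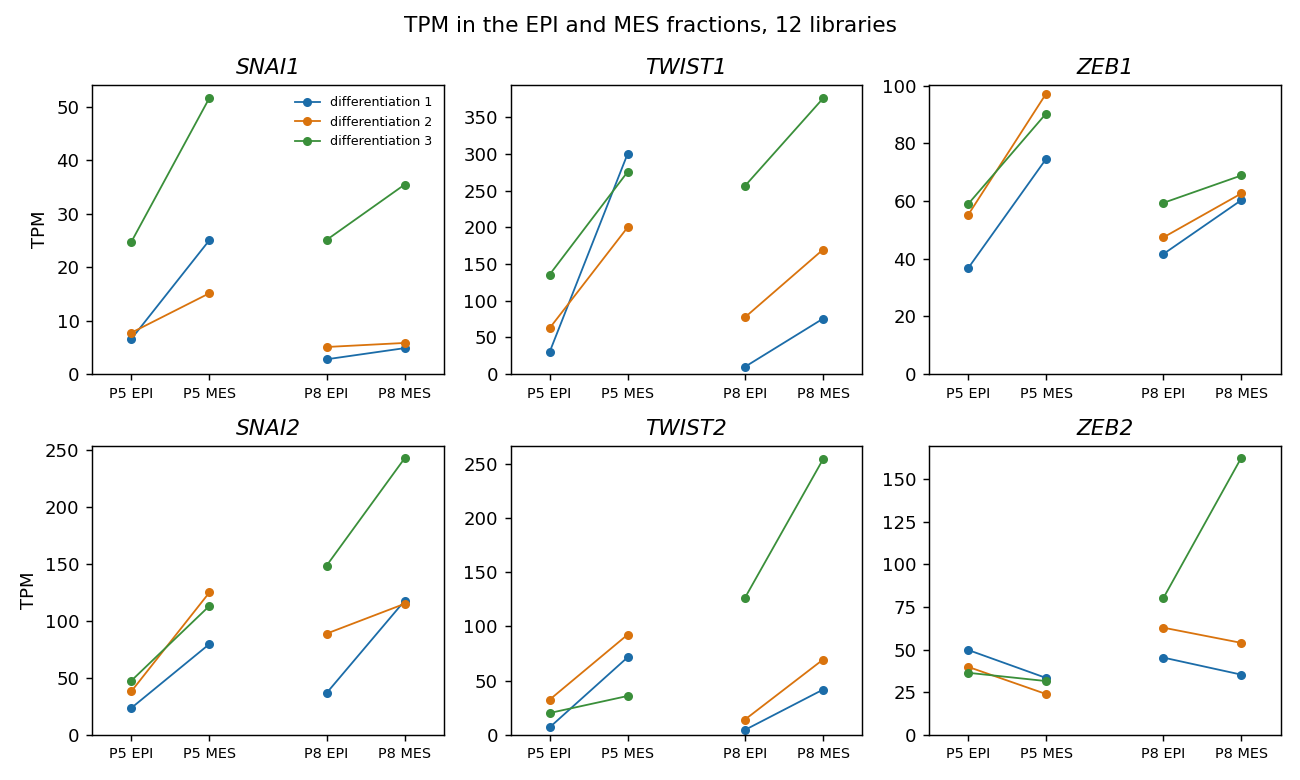
TPM of each gene in the EPI and MES fractions at P5 and P8, with a line joining the fractions of a differentiation. At P5 the TWIST1 lines end between 200.3 and 300.7 TPM in MES, and the ZEB2 lines slope down in each differentiation.

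Of the epithelial genes that SNAI and ZEB proteins are known to repress, 6 of 16 were lower at 36 h, beside 2.71% of all genes tested that passed, and the other 10 did not pass. The median log2 fold change over the list was -2.69, beside 0.004 over all genes tested. The tight junction genes CLDN3 and CLDN7 had the largest changes among those passing, -4.39 ± 1.03 and -4.16 ± 0.78, followed by the polarity gene CRB3 (-3.83 ± 0.77) and the membrane protease gene ST14 (-3.62 ± 0.87). At P5 15 of 16 were lower than t0, beside 14.3% of all genes passing, with a median of -8.15 beside 0.012. The largest changes were those of the splicing regulator ESRP1 (-11.95 ± 0.87), MARVELD3 (-11.37 ± 1.54), the epithelial transcription factor GRHL2 (-11.37 ± 1.35) and CDH1 (-11.16 ± 1.02). CDH1 went from 152.3 TPM at t0 to 32.05 at 36 h, where it did not pass (edgeR adjusted p = 0.0192), and 0.14 at P5 as group means. CDH1 was at 0.12 TPM in P5 EPI and 0.127 in P5 MES, so the fraction named epithelial held next to none of this epithelial cadherin. The fit gave -1.35 ± 0.50 for MES against EPI (edgeR adjusted p = 0.137) from a mean of 5.10 normalized counts, while the TPM means were about equal. CDH2, the cadherin of neuroepithelium and mesenchyme, was at 301.2 TPM in P5 EPI and 128.5 in P5 MES as group means. In the fractions 8 of the 16 had counts enough to be tested and none passed by edgeR, with a median of -1.21 at P5 and -0.18 at P8 for MES against EPI, and part of these medians rests on such low counts.

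The scan of upstream sequence used the letters CACCTG and their reverse complement CAGGTG, an E-box that SNAI and ZEB proteins are known to bind. In the 250 bases before RefSeq starts, 17.5% of all 35116 windows held either. Of the 16 epithelial genes 7 had a window, and 6 of their 9 windows held a match, as did 2 of the 9 windows of ZEB1, ZEB2 and TWIST2. The epithelial list was chosen for known repression by SNAI or ZEB proteins, so its share is not independent of that choice. The matching windows of CDS1, CLDN7, CRB3 and OCLN overlapped an exon of the gene. The windows below are those of an epithelial gene and of ZEB1 that held a match and overlapped no exon of the gene in GENCODE 29. They come from RefSeq (GRCh38.p14, plus strand), chr1:156060910-156061159 for RAB25 and chr10:31318167-31318416 for ZEB1, with matches in capitals, and a match is a description of the letters alone.
RAB25: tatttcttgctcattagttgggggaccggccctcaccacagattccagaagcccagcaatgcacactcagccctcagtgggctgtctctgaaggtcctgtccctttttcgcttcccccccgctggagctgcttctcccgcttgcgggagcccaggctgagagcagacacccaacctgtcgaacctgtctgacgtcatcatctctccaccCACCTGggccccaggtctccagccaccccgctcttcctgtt
ZEB1: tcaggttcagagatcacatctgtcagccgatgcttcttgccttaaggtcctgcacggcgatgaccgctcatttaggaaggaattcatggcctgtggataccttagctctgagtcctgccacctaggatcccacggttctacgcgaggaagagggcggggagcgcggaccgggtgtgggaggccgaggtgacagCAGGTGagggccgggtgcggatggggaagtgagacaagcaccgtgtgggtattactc

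RAB25, a vesicle trafficking gene, did not pass at 36 h and was lower at P5, at 0.183 TPM against 36.8 TPM at t0 as group means. ZEB1 moved the other way, from 2.41 ± 1.22 to 58.4 ± 11.1 TPM (SD, n = 3 each). A link between RAB25 and ZEB1 was not tested. By edgeR 1400 genes passed as higher and 1707 as lower at P5 against t0.

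Mesenchymal adhesion, filament and matrix genes were higher, 6 of 16 at 36 h and 12 of 16 at P5, beside 2.71% and 14.3% of all genes passing, with medians of 1.27 and 2.51 beside 0.004 and 0.012 over all genes tested. The largest log2 fold changes among those passing were those of the matrix gene TNC (4.75 ± 1.00) and the mesenchymal cadherin CDH11 (3.19 ± 0.54) at 36 h, and at P5 those of COL3A1, a fibrillar collagen (9.48 ± 1.33), the cadherins CDH6 (6.00 ± 0.71) and CDH11 (5.56 ± 0.60), and TGFBI (5.50 ± 0.49). By edgeR none of this list passed in P9 against P8, beside 1.22% of all genes tested, or between fractions, beside 0%. The medians were 1.07 in P9 against P8 and, between fractions, 0.82 at P5 and 0.58 at P8. Members differed in direction: in the P5 fractions SPARC (-0.62), TGFBI (-1.30), CDH2 (-1.27), CDH6 (-0.60) and TNC (-1.23) had lower values in MES. In P9 against P8 SPARC (-1.90) and TGFBI (-0.26) had lower values, while VIM (1.39) and CDH11 (1.53) had higher ones. CDH6 was at 304.9, 218.8 and 198.3 TPM at P8 and at 48.9 and 35.6 at P9. CDH2 was also lower, at 300.0, 241.8 and 155.2 TPM at P8 and 103.5 and 109.3 at P9.

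Of the E proteins and ID inhibitors that set which partners TWIST proteins have, none of 7 passed at 36 h by edgeR (median 0.76). There 2.71% of all genes tested passed, so a count of 0 in so short a list says little. At P5 2 of 7 were higher (median 1.18, beside 14.3% of all genes passing), ID4 by 3.15 ± 0.64 and TCF4 by 1.18 ± 0.34. At P9 against P8, 3 of 7 were higher, with a median of 1.58, beside 1.22% of all genes tested. These were ID1 (4.23 ± 0.67), ID3 (2.24 ± 0.39) and the E protein TCF12 (1.55 ± 0.30). TWIST1 passed in this step too, as it did from P1 to P3, and a link between them was not tested.

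Among 14 ligands, receptors and SMADs of TGF-beta and BMP signalling, known inducers of these families, none passed at 36 h by edgeR (median 0.23). This stands beside 2.71% of all genes tested. At P5 6 were higher (median 0.93, beside 14.3% of all genes passing). BMP4 rose by 7.11 ± 0.69 and TGFB2 by 6.37 ± 0.77 on the log2 scale. Of 10 corepressor genes, EZH2 was the 1 that passed at P5 (1.22 ± 0.14), a share below the 14.3% of all genes passing, with medians over the list of 0.02 at 36 h and 0.04 at P5. Of 7 genes for turnover of the proteins, FBXL14 passed at 36 h (2.06 ± 0.34), beside 2.71% of all genes tested, and at P5 (1.14 ± 0.33). List medians were 0.18 at both times, and at P5 this 1 of 7 is the same share as the 14.3% over all genes. SNAI3, a further SNAI gene, was lower at 36 h (-2.92 ± 0.68) and at P5 (-6.47 ± 0.84). ZEB1-AS1, an antisense neighbour, did not pass (0.30 ± 0.31 at 36 h, edgeR adjusted p = 0.596). ZEB2-AS1 came to 3.77 ± 0.65 at 36 h (edgeR adjusted p = 0.000403) and missed the call by its low counts, at 0.19 TPM at t0 and 2.22 TPM at 36 h as group means. The strand setting of the counting was not given in the sources used here, so where exons of ZEB1 or ZEB2 overlap those of its antisense gene, reads of the pair cannot be told apart.

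Markers of cell types were measured in the same libraries, and their part in the changes of the 6 genes was not tested. Their counts at P5 stand beside 14.3% of all genes passing, and those at 36 h beside 2.71%. The 12 neural crest markers summed to 53.8 ± 2.7 TPM at t0, 786.0 ± 250.3 at P5 and 1594 ± 123.1 at P9 (SD, n = 3, 3 and 2), with none at 0 in every library of these groups and MSX1 the most abundant at P5 and P9, and 6 of 12 were higher at P5 (median 4.57). At P5 EPI they summed to 573.1, 454.1 and 772.0 TPM and at P5 MES to 1109, 985.2 and 1313 TPM, without overlap. By group means 8 of the 12 were higher at P9 than at t0, among them MSX1 (685.7 against 0.53 TPM), MSX2 (350.5 against 0.33 TPM), ZIC1 (168.2 against 0.61 TPM), PAX3 (107.6 against 0.177 TPM) and TFAP2A (89.3 against 0.0867 TPM). The other 4, SOX10 (0.88 against 1.89 TPM), NGFR (4.29 against 8.72 TPM), FOXD3 (10.1 against 11.9 TPM) and PAX7 (0.005 against 0.147 TPM) were lower. This count by means was not tested, and the share of all genes with a higher mean at P9 was not counted. Over all genes tested the median log2 fold change of P9 against t0 was 0.02. From P8 to P9, 2 of 12 were higher, MSX2 and TFAP2A, beside 1.22% of all genes tested. At 36 h 2 of 12 were higher, MSX1 and MSX2 (median 0.70). In the P5 fractions 10 of the 12 had a higher group mean in MES, SOX10 at 1.29 TPM in EPI and 11.8 in MES among them. The list median was 1.59, beside 0.003 over all genes tested. The other 2 were PAX3 (79.95 TPM in EPI against 38.8 in MES) and PAX7, which was low in both (0.327 ± 0.148 against 0.18 ± 0.204 TPM, SD, n = 3 each). None of these passed between fractions by edgeR. The 8 pre-neural markers summed to 896.9, 734.1 and 571.1 TPM in P5 EPI and to 316.9, 304.9 and 109.6 TPM in P5 MES, again without overlap, with CDX2 the most abundant in both. In the P8 fractions the ranges of both lists overlapped, while in each of the 3 differentiations the pre-neural sum was lower in MES and the neural crest sum higher, with pre-neural sums of 814.0, 324.6 and 239.1 TPM in EPI and 552.5, 214.0 and 84.9 TPM in MES, and neural crest sums of 386.9, 736.8 and 1130 TPM in EPI and 642.1, 802.6 and 1384 TPM in MES. Against t0, 3 of the 8 were higher at P5 (median 0.40) and 3 at 36 h (median 2.85). Sums of 3 other lists also differed between the P5 fractions without overlap, and no member passed by edgeR. Lateral plate and limb markers were at 181.3, 231.8 and 258.5 TPM in EPI and 295.6, 373.8 and 382.3 in MES (median 0.68), endothelial markers at 1.20, 2.12 and 2.72 TPM and 7.10, 4.73 and 4.74 (median 0.78), and neuronal markers at 345.3, 256.3 and 227.5 TPM and 190.5, 157.6 and 89.5, where the median was 0.35 although the sum, led by TUBB3, was lower in MES. Nearly all of the lateral plate and limb sum was PRRX1, at group means of 221.9 TPM in P5 EPI and 344.3 in P5 MES.

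The 8 pluripotency markers summed to 4209 ± 313 TPM at t0 and 191.2 ± 12.98 at P5 (SD, n = 3 each), where 6 were lower (median -6.66). The 10 markers of primitive streak and paraxial mesoderm summed to 325.2, 1984 and 2006 TPM at 36 h, lowest in differentiation 1, in which SNAI1 was also lowest, and MIXL1 was the most abundant. Of these 10, 3 were higher at 36 h (median 5.86). The 12 lateral plate and limb markers summed to 258.6 ± 53.9 TPM at P5, nearly all of it PRRX1, at 254.9 TPM, the 1 of 12 that passed, a share below that of all genes. At 36 h they summed to 3.60, 16.7 and 57.6 TPM, again lowest in differentiation 1, and 2 of 12 were higher, GATA6 and GATA4 (median 3.76). Of 6 endothelial markers 2 were lower at P5, when they summed to 2.96 ± 0.65 TPM. Of 7 neuronal markers 2 were higher at P5, and they summed to 236.5 ± 50.8 TPM then, with TUBB3 the most abundant.

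Across the 47 libraries, which share cell line and differentiations, the genes most like each of the 6 were sought among 13257 genes by Pearson r of log2 normalized counts, as a description. For TWIST1 they were LSAMP (0.981), RFTN2 (0.962) and EMILIN1 (0.961). For ZEB1 they were SMAP2 (0.967), TNRC18 (0.961) and KCTD20 (0.955), and for ZEB2 RIPOR1 (0.921), SLC40A1 (0.918) and CCDC92 (0.911). SNAI2 had BMI1 (0.928), ZNF70 (0.925) and ZNF410 (0.925), TWIST2 had PCDHB2 (0.927), FARP1 (0.926) and LRRN4CL (0.924), and SNAI1 had ROBO1 (0.828), GLTP (0.774) and IGFBP4 (0.767). With Spearman's rho 5 of these 18 names came up again, so most of them rest on the measure. Among the 6 genes themselves, r was 0.897 for ZEB1 with TWIST1 and also with SNAI2, and 0.111 for SNAI1 with TWIST1.

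In GENCODE 29 (GRCh38), SNAI1 lies at chr20:49982999-49988886 and TWIST2 at chr2:238848032-238910543 on the plus strand. ZEB2 lies at chr2:144364364-144524583 and TWIST1 at chr7:19020991-19117672 on the minus strand. ZEB1 lies at chr10:31318495-31529814 on the plus strand and SNAI2 at chr8:48917604-48921740 on the minus strand.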

How the data were processed

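The authors trimmed reads with cutadapt 1.16, aligned them to GRCh38 with STAR 2.5.2b and quantified genes with RSEM 1.3.0, per the labels. The deposited tables hold expected counts, of which 9.33% were not whole and which were rounded here, and the deposited TPM values, used for levels and shares. Gene names came from GENCODE 29, which named 57447 of 58051 genes. Normalized counts are counts scaled by TMM factors over 47 libraries. Fits used edgeR 4.0.16 (limma 3.58.1, DESeq2 1.42.0 as alternatives) in R 4.3.3, on genes kept by filterByExpr: 1 fit of 35 whole-culture libraries and 1 of 12 fraction libraries, tested on simulated data. The replicate number, taken from the library names, was a block, since per the labels each experiment ran through all time points and fractions. Deviations from group means correlated within numbers at 0.649 on average for the P5 fractions and 0.777 for the P8 fractions, and at -0.007 for t0 with 36 h. The closest replicate pair differed 25.4 times more than counting noise (chi-square per degree of freedom), so no library was counted as a duplicate. Named list genes are up to 4 per list, those with the largest change among those passing, or the most abundant. Outside this rule, CDH2, CDH6 and TNC in the fractions and CDH2 and CDH6 at P9 were named after their values were seen. So were CDH1 at 36 h, MSGN1 in the early passages and single neural crest markers, and RAB25 was named for its sequence window. The members and lists were chosen with earlier results of these data known. The FPKM column was not used here. Alternatives left out the block, changed the tool, scaling, filter, thresholds or unit, or left out libraries.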

Additional observations from a re-analysis of the deposited data

How the results depend on the processing

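Over the 11 comparisons with t0, 49 of 66 tests passed, and between 40 and 54 did under each alternative run. Without the replicate block the count was 46, and 41 to 54 without a differentiation. For the 6 later steps the count of 2 rested on the settings: it was 0 with no replicate block, 8 with DESeq2, 1 with no filter on low counts, 1 with at least 10 counts in every library, 4 with all 47 libraries in 1 fit, 0 with the compared libraries alone, 1 with limma and 8 at an FDR under 5%. Leaving out a differentiation gave 0 to 6, and 3 alternatives were added after seeing the data: leaving out the 4 smallest libraries, picked by depth, gave 0, leaving out P10 of differentiation 1 gave 5, and leaving out the P8 fractions of differentiation 3 changed no count of the 6 genes. Counts over all genes under each setting are not given for these whole-culture comparisons. Shifts in the counts may therefore not be particular to the 6 genes. For P5 MES against P5 EPI the count of 0 became 2 with DESeq2 and 2 at an FDR under 5%, and for P8 against P5 within fractions it became 3 and 2. Between the fractions the count of 0 cannot show stability, since edgeR passed none of 18885 genes there, and without the block the adjusted p at P5 rose to 0.55 for SNAI1 and 0.227 for SNAI2. Over all genes, P5 MES against P5 EPI gave 82 calls with no filter on low counts, 13 with all 47 libraries in 1 fit and 503 at an FDR under 5%. The 18 most alike genes shared 5 with those by Spearman's rho and 11 with those from TPM. Directions turned for results that had not passed: ZEB2 in P8 MES against P8 EPI came to -0.18 without differentiation 3 and also without its P8 fractions alone (-0.18 to 0.44 without a differentiation), and the TWIST2 interaction to 0.26 with limma, -1.27 to 0.29 without a differentiation and 0.80 without the P8 fractions of differentiation 3. The causes were not tested. Low counts limit TWIST1 at t0 and 36 h.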
